A study of Malus domestica with 6 samples.

Results

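Levels of 4 genes that act, by their descriptions, in moving pigments, protons or malate were followed in red flesh (RF) and white flesh (WF) of a red-flesh apple. The genes were taken by ID from the 52311 gene IDs quantified. MD17G1272100 is a glutathione S-transferase that the study called MdGSTU22, although its annotation reads glutathione S-transferase phi 12. MD13G1032100 is a MATE efflux family protein, MD13G1247200 is described as H(+)-ATPase 1 and MD14G1116200 as aluminum-activated malate transporter 9. All 4 passed the filter on low counts, as did 28610 IDs in all. The RF against WF values of these libraries were known when the genes were chosen, so those values are given below as a description and support nothing.

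The tissue was the mesocarp, the edible flesh, of cv. 'R201' at 84 days after full bloom, untreated, with 3 libraries of RF and 3 of WF. According to the labels, RF and WF were separated within the same fruits, and replicates A, B and C were semi-biological, that is, fruits from different trees. All libraries thus came from 1 cultivar at 1 stage. Per the study RF was the outer and WF the inner cortex, and flesh colour cannot be told apart from position.

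Anthocyanins, the red pigments of apple, are made at the surface of the endoplasmic reticulum and stored in the vacuole. In Arabidopsis the glutathione S-transferase phi 12 binds anthocyanins and is needed for them to reach the vacuole, while MATE proteins of the vacuolar membrane exchange flavonoids for protons. Proton pumps maintain the gradient that drives such exchange and set the acidity of the vacuole. Channels of the aluminum-activated malate transporter family let malate, the main acid of apple flesh, pass a membrane, and the Arabidopsis protein of the same number lies in the vacuolar membrane. H(+)-ATPase 1 is the name of a pump of the plasma membrane in Arabidopsis, so the description alone does not place MD13G1247200 at the vacuole. The libraries give RNA levels only, and the pigment and acidity measurements that the study made on RF and WF were not used here. In bulk tissue fewer cells of a type and less RNA per cell cannot be told apart.

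Library totals ranged from 25540845 to 25959371 estimated reads in RF and from 25536185 to 26050906 in WF. The flesh colour label was checked with MdCHS (MD04G1003300), a chalcone synthase, which averaged 1517 ± 96.2 CPM (counts scaled to library size) in RF and 436 ± 49.6 CPM in WF (SD, n = 3 each). MdDFR (MD15G1024100), a dihydroflavonol reductase, averaged 962 ± 73.6 CPM in RF and 445 ± 21.8 CPM in WF (SD, n = 3 each). The study picked both genes on these samples, so they check the labels only weakly. Of 28610 genes tested by edgeR, 1740 were called higher in RF (6.08%) and 1340 lower (4.68%), at a Benjamini-Hochberg adjusted p under 0.05. These 3080 calls ignore the pairing by letter, and 5382 (18.8%) were made with it as a replicate block. Without RF A there were 1607 and without WF B 1644, and 2013 without RF C. The median log2 fold change over all genes tested was −0.0045.

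All 4 genes had higher values in every RF library than in any WF library, both in TPM (a level corrected for gene length as well as library size) and in CPM. RF libraries all lay above WF libraries in CPM for 14.9% of the genes tested. Since the 4 genes were chosen with this contrast known, their count is not read against that share. MdGSTU22 had the highest level and the largest difference of the 4, the MATE protein and the ATPase had middle levels, and the malate transporter had the lowest.

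MdGSTU22 (MD17G1272100, chromosome 17, length 1133 bases) had 32876, 28978 and 26751 estimated reads in RF A, B and C, against 7225, 6421 and 6105 in WF A, B and C. In TPM these were 1757, 1534 and 1406 in RF, against 378, 335 and 315 in WF. The groups lay far apart, with 1028 TPM between the lowest RF and the highest WF library, and in both flesh types replicate A was highest and C lowest. The transcript stood at ranks 28, 31 and 39 of 52311 IDs by TPM in RF A, B and C, and at ranks 297, 331 and 363 in WF A, B and C. It averaged 1566 ± 178 TPM in RF and 343 ± 32.2 TPM in WF (SD, n = 3 each). The fitted log2 fold change from CPM was 2.19 (SE 0.10), a 4.57-fold difference, which placed it at rank 65 among all genes tested. Its counts were whole numbers, within 0.001, in 0 of 6 libraries, so some of its reads were divided with similar sequences and its level carries that uncertainty.

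The MATE gene (MD13G1032100, chromosome 13, length 1690 bases) had 347, 351 and 356 estimated reads in RF A, B and C, against 207.3, 168 and 198 in WF A, B and C. Its TPM was 11.4, 11.5 and 11.4 in RF, against 6.67, 5.42 and 6.28 in WF. RF libraries were nearly identical while WF libraries spread more, and 4.74 TPM separated the groups. The means were 11.4 ± 0.047 TPM in RF and 6.12 ± 0.64 TPM in WF (SD, n = 3 each), with a fitted log2 fold change of 0.90 (SE 0.10). This gene stood at rank 565 by fold change, and its counts were whole in 5 of 6 libraries.

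The proton ATPase gene (MD13G1247200, chromosome 13, length 3618 bases) had 999.97, 470.3 and 782 estimated reads in RF A, B and C, against 356, 137 and 148 in WF A, B and C. Its TPM was 14.1, 6.64 and 10.7 in RF, against 4.90, 1.91 and 2.01 in WF. Replicate A was the highest in both flesh types and B the lowest, and WF A came within 1.74 TPM of RF B. The means were 10.5 ± 3.73 TPM in RF and 2.94 ± 1.70 TPM in WF (SD, n = 3 each). The fitted log2 fold change was 1.84 (SE 0.34), the second largest of the 4 genes and the one with the widest error. It stood at rank 105 by fold change. Its counts were whole in only 1 of 6 libraries, so some of its reads were also divided with similar sequences.

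The malate transporter gene (MD14G1116200, chromosome 14, length 1796 bases) had 93, 141 and 119 reads in RF A, B and C, against 47, 63 and 88 in WF A, B and C, whole numbers in 6 of 6 libraries. Its TPM was 2.85, 4.31 and 3.56 in RF, against 1.41, 1.89 and 2.60 in WF. Only 0.25 TPM lay between RF A, the lowest RF library, and WF C, the highest WF library. The means were 3.57 ± 0.73 TPM in RF and 1.97 ± 0.60 TPM in WF (SD, n = 3 each), with a fitted log2 fold change of 0.86 (SE 0.22) at rank 635. With at most 141 reads per library, this gene had the least depth of the 4.

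**Figure D1:**
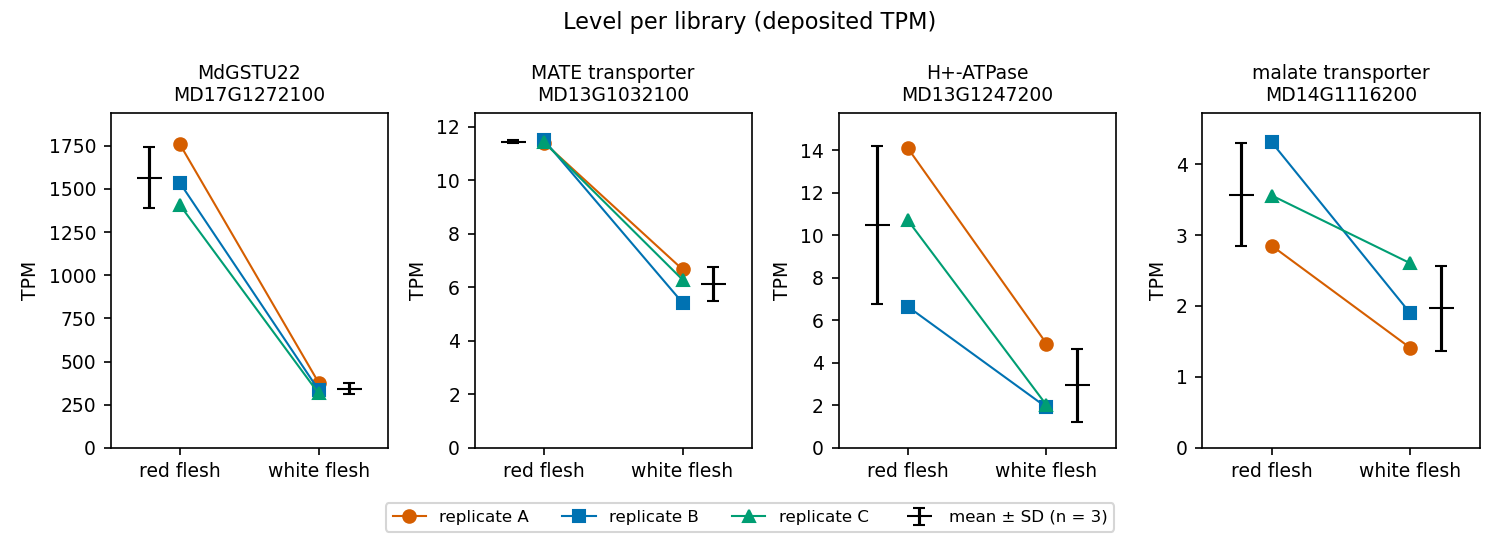
Level of each gene in TPM (y axes, starting at 0 and differing between panels) in the RF and WF library of each replicate (points joined by a line), with the mean ± SD of 3 libraries beside them. MdGSTU22 sits between 1406 and 1757 TPM in RF and between 315 and 378 TPM in WF, the MATE gene is nearly level across RF libraries, and the malate transporter leaves the smallest gap between the groups.

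By TPM, MdGSTU22 was first of the 4 in all 6 libraries, at 123 to 154 times the MATE gene in RF and 50.2 to 61.8 times in WF. In RF the MATE gene and the ATPase were not separated, since the ATPase was above it in 1 of 3 libraries with TPM ratios of 0.58 to 1.24. In WF the MATE gene was above the ATPase in all 3 libraries, with ATPase to MATE ratios of 0.32 to 0.74. The ATPase exceeded the malate transporter in 3 of 3 RF libraries, by 1.54 to 4.95 times, but in WF the ratio ran between 0.77 and 3.48 and the order turned in WF C. The MATE gene was above the malate transporter in every library, by 2.67 to 4.00 times in RF and 2.41 to 4.74 times in WF.

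RF was then set against WF of the same letter, as each pair came from the same fruits. For each of the 4 genes RF was above WF in all 3 pairs. The same held for 25.8% of the genes tested, and as before nothing is read from the count of the chosen genes. The RF to WF ratio of MdGSTU22 in CPM was 4.74 in pair A (95% interval 4.63 to 4.87), 4.55 in pair B (4.43 to 4.67) and 4.40 in pair C (4.27 to 4.52). These intervals are exact binomial ones for counting error only, and those of A and C did not overlap although the ratios differed by little. By deposited TPM the ratios were 4.65, 4.58 and 4.46 in pairs A, B and C and lay closer together. Ratios of the MATE gene were 1.75 (1.47 to 2.09), 2.11 (1.75 to 2.55) and 1.80 (1.51 to 2.16) in pairs A, B and C. All 3 intervals overlapped, but overlap is not a test, and differences in ratio between pairs were not tested.

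The ATPase varied most between pairs, with ratios of 2.93 (2.59 to 3.31), 3.46 (2.85 to 4.21) and 5.30 (4.44 to 6.36) in pairs A, B and C. The interval of pair C lay above those of A and B. The malate transporter had ratios of 2.06 (1.44 to 3.00), 2.26 (1.66 to 3.09) and 1.36 (1.02 to 1.81). Its intervals overlapped, and the lower limit of pair C was close to 1. On the log2 scale the mean over pairs was 2.19 ± 0.06 for MdGSTU22, 0.91 ± 0.14 for the MATE gene, 1.92 ± 0.44 for the ATPase and 0.89 ± 0.39 for the malate transporter (SD, n = 3 pairs). Taken from deposited TPM instead of CPM, these means were 2.19, 0.91, 1.91 and 0.88.

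**Figure D2:**
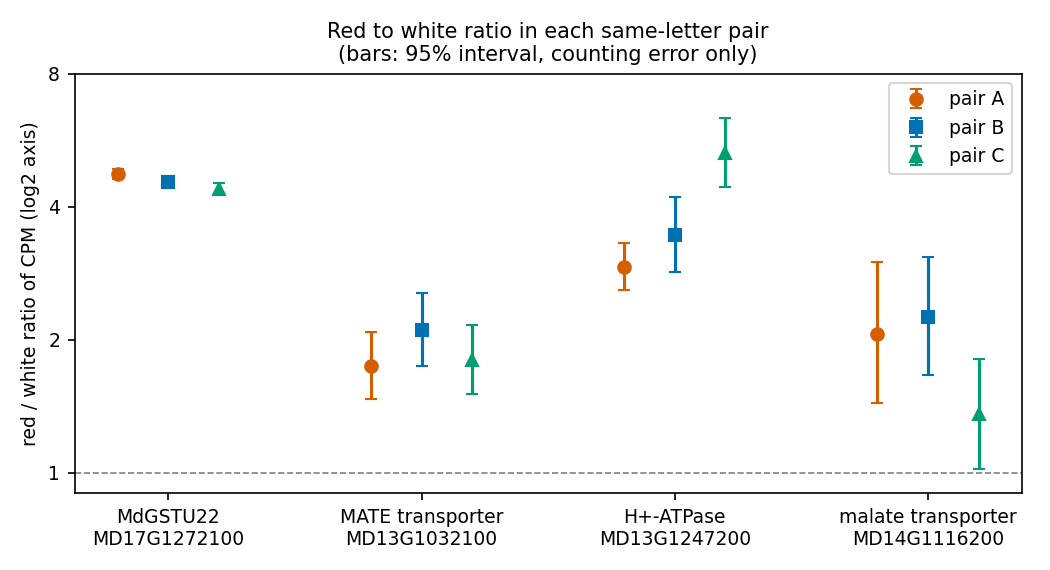
RF to WF ratio of CPM on a log2 axis for each gene in pairs A, B and C (points), with 95% intervals for counting error only (bars) and a dashed line at a ratio of 1. Ratios of MdGSTU22 stay between 4.40 and 4.74, whereas those of the ATPase range between 2.93 and 5.30 with pair C above the other two.

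Differences between the replicate letters were not used to choose the genes and could be tested. With flesh type kept in the fit, edgeR called 669 of 28610 genes between letters at an adjusted p under 0.05 (2.34%), and MdGSTU22 and the ATPase were among them. This background count moved with the processing, to 321 with DESeq2, 2784 without RF C and 1841 without WF C. The ATPase differed most of the 4. Its geometric mean over both flesh types was 23.4 CPM in A, 9.84 CPM in B and 13.1 CPM in C. B was below A by a log2 difference of −1.24 and C by −0.70 (edgeR adjusted p = 0.00165, and between 7.00e-18 and 0.0368 over 12 alternative settings, all past the threshold). The order was A, then C, then B in both flesh types, with 2.19 times between the highest and the lowest RF library and 2.59 times in WF.

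MdGSTU22 differed less between letters, with geometric means of 605 CPM in A, 529 CPM in B and 493 CPM in C. The log2 difference from A was −0.20 for B and −0.30 for C (edgeR adjusted p = 0.0435). The call was lost without RF A, WF A or RF B, and with a mean of at least 50 counts as the filter (edgeR adjusted p = 0.0600). Of 12 alternatives 8 called it. Leaving out a library leaves its letter with 1 library, which is then assumed to vary like the others.

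The MATE gene was not called between letters (edgeR adjusted p = 0.737), with geometric means of 10.5, 9.42 and 10.2 CPM in A, B and C. None of its 12 alternatives called it. The malate transporter went the other way from the ATPase, being lowest in A in both flesh types, with geometric means of 2.60, 3.66 and 3.95 CPM in A, B and C. This did not pass the test (edgeR unadjusted p = 0.0354, adjusted p = 0.265), and of 12 alternatives only the one without RF C called it (0.0175, within a range of 0.0175 to 1.00). The replicates were fruits from different trees, and each letter held an RF and a WF sample of the same fruits. These p-values set differences between letters against how far RF and WF disagreed within letters. No letter had replicate trees, so the p-values do not measure the spread between trees. Tree, fruit and RNA handling cannot be told apart within a letter.

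**Figure D3:**
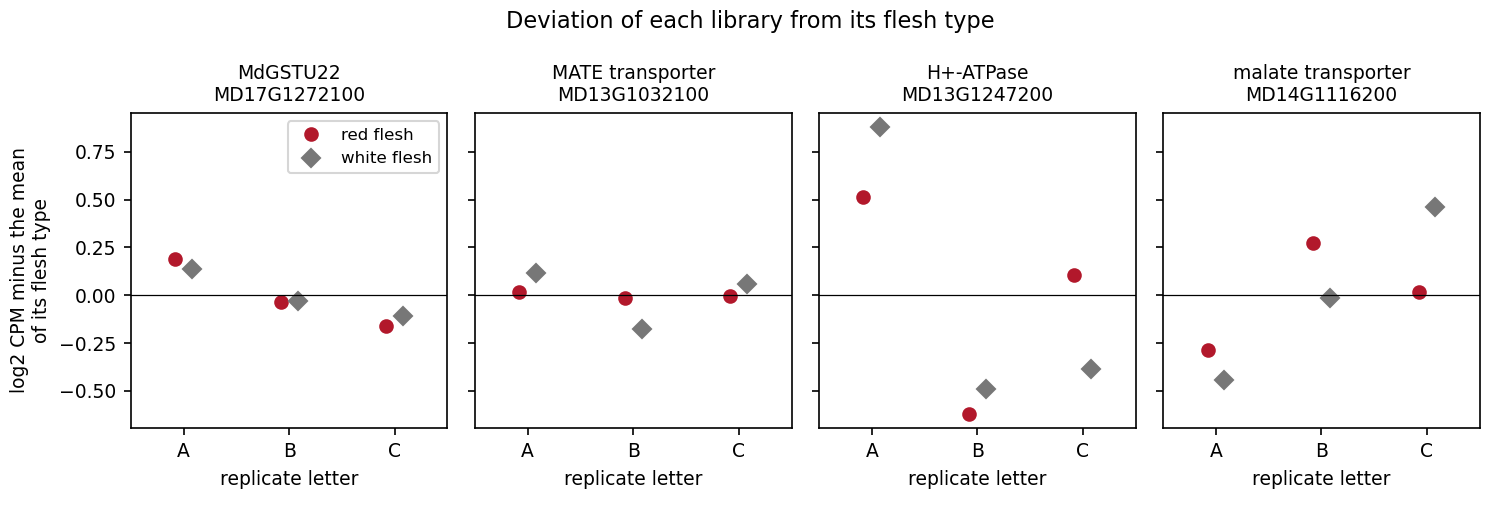
Deviation of each library from the mean of its flesh type in log2 CPM (y axis) by replicate letter (x axis), with RF as circles and WF as diamonds. For the ATPase both A libraries lie above 0 and both B libraries below it, while the malate transporter has both A libraries below 0 and MATE deviations are small.

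Spread between libraries shows also in the biological coefficient of variation (BCV), which edgeR estimates for each gene within flesh types. It was 0.284 for the ATPase, 3.67 times the 0.0774 that the trend gives at its abundance, and 98.9% of the genes tested had a lower BCV. The malate transporter had a BCV of 0.166 (trend 0.120) and the MATE gene one of 0.0747 (trend 0.0915). MdGSTU22 had a BCV of 0.0854, which was 1.23 times its trend of 0.0696, and 49.7% of the genes tested had a lower one. The ATPase was not called between flesh types when edgeR estimated dispersion robustly, with a log2 fold change of 1.84 and an edgeR adjusted p of 0.124.

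The wider families and pathways were read from 7 lists of gene descriptions. Nearly all descriptions came from the study's own list of genes called on these libraries, so the counts that follow are a description and not independent evidence of direction. Over all genes tested 6.08% were called higher and 4.68% lower, and this background holds for each list. In the list of glutathione S-transferases 5 of 7 tested members were called higher in RF and 2 lower, with a median log2 fold change of 0.79. Of the others, microsomal glutathione S-transferase MD09G1269000 averaged 106 ± 8.92 CPM in RF and 75.2 ± 2.76 CPM in WF. Both lower members belong to classes other than phi and tau, but so does the microsomal enzyme, which was called higher. The zeta 1 enzyme MD15G1445700, which in Arabidopsis acts in tyrosine breakdown, averaged 102 ± 1.28 CPM in RF and 117 ± 5.07 CPM in WF (edgeR adjusted p = 0.0371). THETA 1 (MD06G1081000) averaged 30.2 ± 1.20 CPM in RF and 36.4 ± 2.42 CPM in WF (edgeR adjusted p = 0.0300). By TPM, MdGSTU22 had the highest level of this list in all 6 libraries. The next largest log2 fold change was 0.85, in glutathione S-transferase tau 7 (MD00G1136300), a gene singled out after its values were seen.

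Of 11 tested MATE genes, 10 were called higher in RF and 0 lower, with a median log2 fold change of 0.60. Each of the 10 had been called by the study, against the 6.08% of all genes called higher. MD13G1032100, at 11.4 to 11.5 TPM in RF and 5.42 to 6.67 TPM in WF, was not the most abundant of them. Detoxifying efflux carrier 35 (MD01G1206300), whose Arabidopsis namesake is a flavonoid transporter of flowers, had 100.9 to 118 TPM in RF and 60.9 to 78.2 TPM in WF, with means of 154 ± 14.5 CPM in RF and 96.7 ± 11.6 CPM in WF. MD08G1037600 averaged 152 ± 2.63 CPM in RF and 124 ± 2.23 CPM in WF, and MD03G1175500 39.4 ± 1.23 CPM in RF and 28.4 ± 1.43 CPM in WF. The tested MATE gene that did not come from the called list, MD00G1083700, averaged 50.5 ± 3.42 CPM in RF and 47.9 ± 0.91 CPM in WF and was not called (edgeR adjusted p = 0.524). Of ABC transporters, some of which move conjugates into vacuoles, 2 of 2 tested were called higher. Multidrug resistance-associated protein 3 (MD03G1188200) averaged 4.12 ± 0.85 CPM in RF and 2.15 ± 0.52 CPM in WF, and non-intrinsic ABC protein 9 (MD12G1203100) 46.96 ± 3.52 CPM in RF and 39.2 ± 0.74 CPM in WF. In both genes every RF library was above every WF library, as in 14.9% of all genes tested. Both had been called by the study, which largely fixes this outcome. A listed ABC-2 type transporter (MD10G1049900), also called by the study, had 0 to 21 reads per library and was not tested. The count of ABC calls was 0 without RF A or RF C, 1 without WF B and 3 without RF B or WF C, while calls over all genes fell to 1607, 2013 and 1644 without RF A, RF C and WF B.

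Among 3 proton pumps, the ATPase had the lowest level by TPM in every library and the largest fold change. Inorganic H pyrophosphatases, which pump protons into the vacuole in Arabidopsis, were far more abundant, with 726 to 809.99 TPM in RF and 598 to 687 TPM in WF for MD04G1194100. This gene averaged 1679 ± 123 CPM in RF and 1408 ± 100.8 CPM in WF, a log2 fold change of 0.25 that was not called without pairing (edgeR adjusted p = 0.0827) and was called when the replicate block was added (0.00277). MD12G1206600 averaged 564 ± 31.8 CPM in RF and 452 ± 30.9 CPM in WF (log2 fold change 0.32, edgeR adjusted p = 0.0180). The 2 calls of this list became 1 without RF A, RF C or WF B.

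Of 8 vacuolar and cation exchange carriers, 5 were called higher in RF and 1 lower, with a median log2 fold change of 0.31, and the malate transporter had the largest fold change and the lowest level by TPM in every library. Sodium hydrogen exchanger 2 (MD12G1232400) averaged 51.9 ± 1.41 CPM in RF and 42.4 ± 3.93 CPM in WF. The lower gene was tonoplast monosaccharide transporter2 (MD05G1139800), a sugar carrier of the vacuolar membrane, at 34.99 ± 1.16 CPM in RF and 42.9 ± 1.24 CPM in WF (edgeR adjusted p = 0.00948). Calcium exchanger 7 (MD12G1011500) averaged 67.0 ± 3.47 CPM in RF and 55.4 ± 6.78 CPM in WF and was not called (edgeR adjusted p = 0.0598), but was called when pairs entered as a replicate block (0.0113). K+ efflux antiporter 5 (MD01G1187400) averaged 38.5 ± 3.33 CPM in RF and 30.8 ± 3.50 CPM in WF (edgeR adjusted p = 0.0444). Called carriers numbered 3 without RF A or RF C and 2 without WF B.

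Enzymes that make or consume malate and citrate gave 11 of 14 called higher and 0 lower, with a median log2 fold change of 0.30. NADP-malic enzyme 3, which turns malate into pyruvate, has 2 IDs in the list. MD15G1091000, taken after its values were seen, had the largest fold change of the list, with 33.2 ± 3.77 CPM in RF and 17.5 ± 1.16 CPM in WF (log2 fold change 0.92, edgeR adjusted p = 0.000149). The more abundant MD15G1195500 averaged 758 ± 4.18 CPM in RF and 662 ± 34.7 CPM in WF and was not called (edgeR adjusted p = 0.0892, or 0.0136 when blocked by pair). Cytosolic isocitrate dehydrogenase (MD17G1270700) averaged 378 ± 20.1 CPM in RF and 288 ± 10.7 CPM in WF. A malate dehydrogenase (MD03G1240100) averaged 258 ± 15.9 CPM in RF and 223 ± 1.27 CPM in WF and was not called (edgeR adjusted p = 0.0554, or 0.00976 when blocked by pair). ATP-citrate lyase A-2 (MD16G1096300), which splits citrate in the cytosol, averaged 276 ± 22.5 CPM in RF and 205 ± 11.2 CPM in WF. With the replicate block 13 were called higher and 1 lower, and without WF B 7 were called.

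The 1 gene called lower under that block was phosphoenolpyruvate carboxylase 4 (MD16G1050300), named for that call, of a family that feeds carbon into malate. It averaged 12.7 ± 2.76 CPM in RF and 17.8 ± 3.56 CPM in WF (log2 fold change −0.48, edgeR adjusted p = 0.0892, or 0.000392 when blocked by pair). It was called between letters (edgeR adjusted p = 0.00969), as was the ATPase, but with another order. Its level was lowest in A in both flesh types, where the ATPase was highest.

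Glutathione, the substrate of the transferases, is made and kept reduced by a further group, of which 3 of 3 were called higher with a median log2 fold change of 0.32. Glutamate-cysteine ligase (MD06G1082500), the first enzyme of its synthesis, averaged 64.0 ± 4.92 CPM in RF and 51.5 ± 5.57 CPM in WF. Glutathione-disulfide reductase (MD04G1004900) averaged 110.1 ± 2.80 CPM in RF and 85.6 ± 2.55 CPM in WF, and glutathione reductase MD10G1192300 averaged 51.3 ± 1.04 CPM in RF and 42.4 ± 2.36 CPM in WF. Only 1 of the 3 was called without RF A or without WF B. Against these, the list of flavonoid and anthocyanin synthesis had 15 of 15 called higher with a median log2 fold change of 1.11, again against 6.08% of all genes and with 15 of 15 IDs from the study's called genes. MdGSTU22 at 2.19 lay within the range of that list, 0.59 to 2.96. The upper end was UDP-glucosyl transferase 78D2 (MD07G1306900, SE 0.41), and the next largest value, 2.04 in MD13G1285100, was below that of MdGSTU22. Both genes were named after their values were seen.

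**Figure D4:**
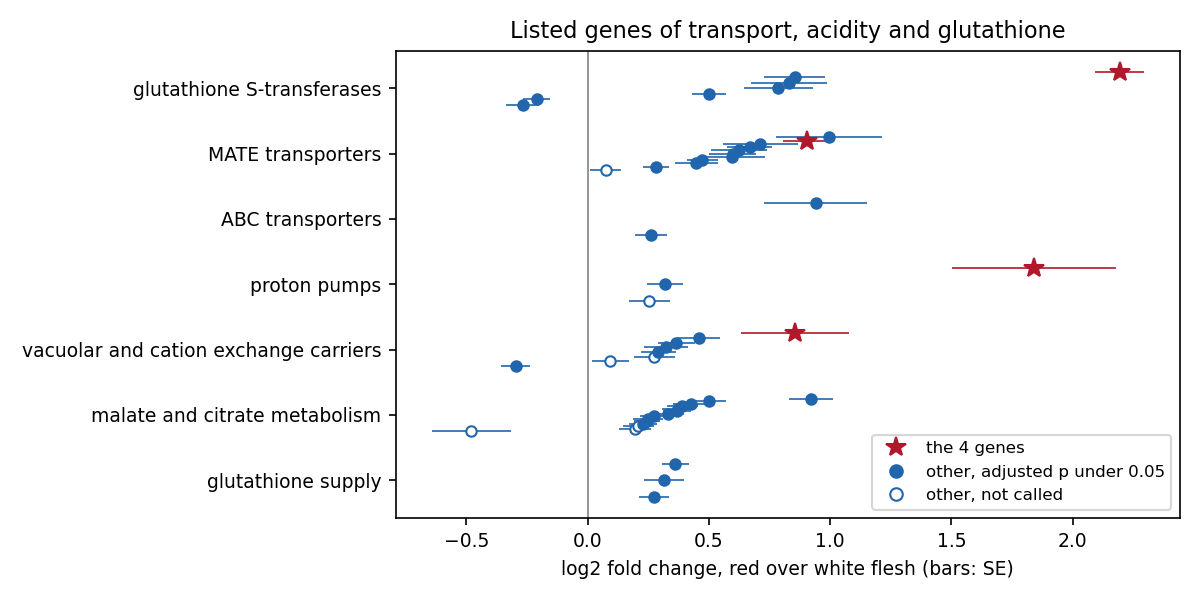
Log2 fold change of RF over WF (x axis, bars are SE) for each tested gene of 7 lists (y axis), with the 4 genes as stars and filled circles for other genes at an edgeR adjusted p under 0.05. MdGSTU22 at 2.19 and the ATPase at 1.84 stand to the right of all other genes drawn, and 2 glutathione S-transferases and the monosaccharide carrier are the called genes left of 0.

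Marker lists of other tissues were read in the same way. Of the IDs listed, 22 of 25 for green tissue, 3 of 3 for epidermis and cuticle and 6 of 6 for vascular tissue came from the study's called genes, which largely fixes their counts, against 6.08% higher and 4.68% lower over all genes. Green tissue markers were called higher in RF for 19 of 23 tested and lower for 0, with summed levels of 1885 to 1973 CPM in RF and 1116 to 1333 CPM in WF, and 1 of the 25 IDs at 0 in every library. Epidermis and cuticle markers were called higher for 3 of 3, with sums of 46.1 to 72.2 CPM in RF and 29.9 to 37.4 CPM in WF, and 0 IDs at 0. Vascular markers were called higher for 3 of 6 and lower for 2, with sums of 2376 to 2717 CPM in RF and 1691 to 1987 CPM in WF, and 0 IDs at 0. Most of the vascular sum came from xylem bark cysteine peptidase 3 (MD05G1300100), at 1868 ± 146 CPM in RF and 1281 ± 117 CPM in WF, so the sum does not stand for the list, whose members went both ways. The 5 vascular calls became 3 without RF A or without WF B. The epidermis sum came mostly from 3-ketoacyl-CoA synthase 11 (MD15G1178600). This gene gave 56.96 of 72.2 CPM in RF A and 36.2 of 37.4 CPM in WF A. Lipid transfer protein 4 (MD12G1187100) and 3-ketoacyl-CoA synthase 10 (MD08G1046600) were highest in A within RF but lowest in A within WF (0.31 and 0.85 CPM). The epidermis sum thus does not stand for its list in WF. Epidermis and vascular sums were highest in replicate A of both flesh types, as were MdGSTU22 and the ATPase. This was not particular to these markers. Sums of the MATE, ABC transporter, proton pump, malate and citrate, and glutathione supply lists were also highest in A of both flesh types. Those of green tissue, of vacuolar and cation exchange carriers and of flavonoid synthesis were not. The part of the marker tissues in the differences of the 4 genes, between flesh types or between letters, was not tested.

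Genes whose profile over the 6 libraries was most like that of each gene were found by the root-mean-square distance between centred log2 CPM values, over 22619 genes of which 1908 had a description. This likeness includes the RF to WF difference by which the 4 genes were chosen, and the libraries are shared by all genes. For MdGSTU22 the 3 nearest described genes were MD06G1036600, an NAD(P)-binding protein, at 0.154, MD12G1116700, described as PHE ammonia lyase 1, at 0.178, and phosphate transporter 4 (MD04G1146900) at 0.189. Phenylalanine ammonia lyase opens the pathway to all phenolics, and MD12G1116700 averaged 167 ± 26.1 CPM in RF and 37.0 ± 10.2 CPM in WF. For the MATE gene a protein of unknown function (MD10G1038100) at 0.0627, a major facilitator carrier (MD07G1302200) at 0.0636 and MD12G1125900, described as related to AP2.7, at 0.0702 came nearest.

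The ATPase had no close match, its nearest being a terpenoid cyclase family gene (MD09G1167700) at 0.244 and a leucine-rich repeat kinase (MD11G1066000) at 0.250. Amino acid transporter 1 (MD05G1274700) followed at 0.295, with 44.0 ± 13.8 CPM in RF and 13.4 ± 4.00 CPM in WF. The malate transporter was nearest to an oxidoreductase (MD13G1092200) at 0.0803, to glutathione S-transferase phi 8 (MD03G1282700) at 0.125 and to NDH dependent flow 6 (MD06G1195600) at 0.133. The phi 8 gene averaged 21.7 ± 1.66 CPM in RF and 12.6 ± 3.11 CPM in WF.

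The 10 nearest IDs of each gene, 5 on either side, were looked at next. Over all genes tested 6.08% were called higher and 4.68% lower, and the counts here are too small to be read against these shares. Only neighbours with a description are named at first, and most descriptions came from the study's called genes. Around MdGSTU22 7 neighbours were tested, of which 0 were called higher and 2 lower in RF. Auxin response factor 8 (MD17G1272200), the next ID and a factor of auxin signalling, averaged 128 ± 3.58 CPM in RF and 169 ± 10.7 CPM in WF (log2 fold change −0.40, edgeR adjusted p = 0.00238). Expansin A13 (MD17G1271500), of a family that loosens cell walls, averaged 15.7 ± 0.55 CPM in RF and 21.1 ± 1.00 CPM in WF. Of 3 tested neighbours of the MATE gene and the 1 of the ATPase, 0 were called. Around the malate transporter 8 were tested, with 0 called higher and 1 lower. The lower one, MD14G1116600, had no description and at most 27 reads per library (log2 fold change −2.40).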

How the data were processed

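Poly(A) RNA of 3 RF and 3 WF libraries was sequenced as strand-marked paired reads. The authors deposited 1 table per library in salmon's format, with an estimated count of reads per gene (not whole where reads match several genes), TPM scaled by effective length, and lengths in bases. Its version is not given in the sources used here. IDs have the GDDH13 v1.1 form, and chromosomes were read from them. None matched the RefSeq table at hand (0 IDs), so no sequence is shown.

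Estimated counts were rounded and tested with edgeR 4.0.16 in R 4.3.3 (TMM, filterByExpr, flesh type only, two-sided quasi-likelihood test, Benjamini-Hochberg over 28610 genes). Letters were tested with flesh type kept. CPM used TMM-scaled library sizes. The study used DESeq2 (here 1.42.0, an alternative). Other alternatives were DESeq2 size factors, other count filters, length offsets, robust dispersion, the replicate block and leaving out each library. The test was checked on data simulated at the trend of the BCV. That check did not cover genes with a BCV far above the trend, such as the ATPase.

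Same-letter RF and WF samples deviated together across genes (r = 0.27, 0.23 and 0.23 for A, B and C). Between letters r was −0.22 to 0.00. Deviations were taken from the mean of each flesh type, which makes between-letter values negative on average where same-letter values are positive. The between-letter values are thus not separate evidence. The labels give the same fruits, so letters were taken to pair samples.

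The 4 genes, the lists and the tests were chosen with earlier results of these data known. Lists came from 2120 descriptions in the study's supplement, 1939 from its called genes. The rule named the 4 genes, up to 4 genes of highest mean CPM per list and those called lower, the 3 nearest described profiles per gene, described neighbours, and MdCHS and MdDFR.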

Additional observations from a re-analysis of the deposited data

How the results depend on the processing

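All 4 genes kept a positive log2 fold change of RF over WF under each of the 13 alternatives. With the replicate block, which pairs samples by letter, 5382 genes were called (2981 higher and 2401 lower, 18.8% of those tested). The 4 genes were among them (edgeR adjusted p between 3.83e-11 and 0.00251). They were chosen with this contrast known, so their calls in this section are a description and support nothing. Leaving out 1 library at a time gave 1607 to 3147 genes called, 939 to 1624 higher and 666 to 1523 lower, the fewest without RF A or WF B. Over the same fits the log2 fold change was 2.09 to 2.27 for MdGSTU22, 0.82 to 0.96 for the MATE gene, 1.56 to 2.42 for the ATPase and 0.66 to 1.11 for the malate transporter. The malate transporter was not called in 4 of them (edgeR adjusted p = 0.0805 without WF A, 0.110 without WF B, 0.117 without RF B and 0.0887 without RF C), and 3 to 4 of the 4 genes were called. With robust dispersion the ATPase kept its log2 fold change of 1.84 but was not called (edgeR adjusted p = 0.124). The cause of these losses was not tested.

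Between letters DESeq2 called 321 genes, and leaving out 1 library gave 457 to 2784. Adjusted p-values for letters over those fits were 0.000733 to 0.321 for MdGSTU22 and 0.0175 to 0.694 for the malate transporter. With a mean of at least 50 counts MdGSTU22 had 0.0600. Called members ranged over the left-out libraries between 0 and 3 for ABC transporters, 1 and 3 for proton pumps, 2 and 6 for vacuolar and cation exchange carriers, 7 and 11 for malate and citrate metabolism, 1 and 3 for glutathione supply and 3 and 5 for vascular markers. The malate transporter had the least depth of the 4 genes, with 47 to 141 reads per library, and the part of depth in its lost calls was not tested.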
